A study of Mus musculus with 1920 samples.

Results

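Alpha-defensins and other antimicrobial genes of Paneth cells were examined in sorted intestinal stem cells (ISCs) of young and aged mice. The genes were chosen by name: every numbered alpha-defensin (Defa followed by a number), Lyz1, Ang4, Itln1, Mptx1, Mptx2, Mmp7, Pla2g2a, Reg3a, Reg3b and Reg3g. These were 32 of the 55471 genes in the count table, of which 22 were alpha-defensins, 7 other granule genes and 3 Reg3 genes. Crypt cells were taken from the small intestine of B6.129P2-Lgr5tm1(cre/ERT2)Cle/J mice, in which the Lgr5 locus drives a green fluorescent protein, and cells with a high signal were sorted singly. All 3 young and 4 aged mice carried this allele, no treatment is named for them, and neither the labels nor the methods state how many weeks old these animals were. A Smart-seq2 method without molecular identifiers gave 1920 cells with distinct names, and 1836 of them had at least 1000 detected genes and were kept. The mouse was the replicate, and reads were summed over the cells of each mouse and given as counts per 1000000 reads on genes (CPM). Between 49447464 and 134408884 reads on genes stood behind each mouse. The cell names carry 5 codes of 384 cells each, which are taken here as sequencing lanes since the methods put that many cells on a lane. Of these codes 3 held both ages, and young mouse 2 was split between 2. Reads are not independent molecules, so intervals on cells cover counting error only.

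Paneth cells sit between the ISCs at the base of the small intestinal crypt and store antimicrobial proteins in granules. Alpha-defensins, called cryptdins in the mouse, are short cationic peptides held together by disulfide bridges between cysteines and are cut from a precursor by matrilysin, the product of Mmp7. Lyz1 encodes lysozyme, which cleaves bacterial cell walls, Itln1 an intelectin that binds microbial sugars, Ang4 a ribonuclease with microbicidal activity, Mptx1 and Mptx2 mucosal pentraxins, and Pla2g2a a secreted phospholipase. Reg3a, Reg3b and Reg3g encode C-type lectins that are made by enterocytes as well as by Paneth cells. The question was how many reads of these genes were traces spread over sorted cells and how many came from cells with high levels.

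The alpha-defensins are close copies, and this limits how far reads can be assigned to any of them. All 22 lie on chromosome 8 and have 92 to 116 codons, with 6 to 11 cysteine codons. The last coding exon, which carries the mature peptide, is shown 5′ to 3′ on the coding strand for the leading pair by level and for the pair Defa21 and Defa22, with the in-frame cysteine codons in capitals (GENCODE M21, GRCm38, plus strand). Defa24 is at chr8:21735268-21735374, Defa30 at chr8:21135394-21135500, Defa21 at chr8:21026314-21026420 and Defa22 at chr8:21163046-21163152.
Defa24: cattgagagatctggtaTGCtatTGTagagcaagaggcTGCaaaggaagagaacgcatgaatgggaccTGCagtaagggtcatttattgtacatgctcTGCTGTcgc
Defa30: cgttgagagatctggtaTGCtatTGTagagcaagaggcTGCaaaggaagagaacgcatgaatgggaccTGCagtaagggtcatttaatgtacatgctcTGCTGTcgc
Defa21: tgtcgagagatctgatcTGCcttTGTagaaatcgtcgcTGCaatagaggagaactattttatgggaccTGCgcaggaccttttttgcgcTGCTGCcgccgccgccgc
Defa22: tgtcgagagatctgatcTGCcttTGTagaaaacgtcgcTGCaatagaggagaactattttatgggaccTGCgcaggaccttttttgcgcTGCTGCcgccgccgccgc

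Over these 107 bases Defa24 and Defa30 differed at 2 bases, Defa21 and Defa22 at 1, and Defa21 and Defa24 at 43, and each exon held 6 cysteine codons. Identity of the whole coding sequence ran from 62.4% to 100% over the 231 pairs of alpha-defensins, with a median of 83.2%, and 35 pairs had at least 95%. The coding sequences were identical in the pairs Defa2 and Defa33, Defa20 and Defa32, Defa23 and Defa31, Defa3 and Defa17, and Defa36 and Defa37. Of the 50-base windows in the transcripts of Defa24, 71.9% occurred in no other gene, the highest share of any alpha-defensin, against 47.6% for Defa30, 27.1% for Defa21 and 25.1% for Defa22. In 11 of 22 alpha-defensins the share was under 10%, and it was 0% for Defa2, Defa20, Defa31, Defa32, Defa33 and Defa37. The counts of these copies are therefore uncertain one by one, whereas the other members had shares of 82.0% (Mptx2) to 100% (Pla2g2a and the Reg3 genes).

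Upstream sequence was found in RefSeq (GRCm38.p6) for 21 of the 32 genes, and the members differed in the TCF/LEF core ATCAAAG, the recognition letters of the factors through which Wnt signals act. It was searched on both strands, where it reads CTTTGAT on the other, in the 250 bases before the start, together with the TATA box TATAAA, which reads TTTATA on the other strand, and matches of these motifs can share bases. The TCF/LEF core stood in 12 of 12 alpha-defensins and in 3 of 9 other members (Mmp7, Reg3a and Reg3g), against 3.21% of all 32851 windows. Alpha-defensins without a window, among them Defa24, Defa29, Defa34, Defa26 and Defa17, are not covered by this count. The TATA box stood in 11 of 12 alpha-defensins and 4 of 9 other members, against 12.4% of all windows. Upstream sequence, for Defa30 the 242 bases before the start of both annotations, of Defa30 (chr8:21134400-21134641, plus strand), Defa21 (chr8:21025295-21025544, plus strand), Lyz1 (chr10:117292869-117293118, minus strand) and Reg3g (chr6:78468875-78469124, minus strand) is shown 5′ to 3′ on the strand of the gene, with both motifs in capitals, to set a leading alpha-defensin, a copy with 2 cores, a granule gene with none and a lectin gene side by side.
Defa30: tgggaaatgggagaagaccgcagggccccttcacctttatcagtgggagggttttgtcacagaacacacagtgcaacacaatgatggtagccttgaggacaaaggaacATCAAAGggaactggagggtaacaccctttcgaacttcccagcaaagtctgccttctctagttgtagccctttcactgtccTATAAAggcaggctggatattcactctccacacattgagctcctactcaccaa
Defa21: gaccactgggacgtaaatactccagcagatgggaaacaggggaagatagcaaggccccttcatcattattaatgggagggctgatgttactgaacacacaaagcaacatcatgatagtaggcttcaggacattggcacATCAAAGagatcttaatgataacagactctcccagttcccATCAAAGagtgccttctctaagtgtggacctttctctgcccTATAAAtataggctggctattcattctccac
Lyz1: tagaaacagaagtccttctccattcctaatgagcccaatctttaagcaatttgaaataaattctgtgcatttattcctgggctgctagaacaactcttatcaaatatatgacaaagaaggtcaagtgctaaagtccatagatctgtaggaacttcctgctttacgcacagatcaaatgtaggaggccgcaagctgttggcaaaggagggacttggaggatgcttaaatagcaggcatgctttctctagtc
Reg3g: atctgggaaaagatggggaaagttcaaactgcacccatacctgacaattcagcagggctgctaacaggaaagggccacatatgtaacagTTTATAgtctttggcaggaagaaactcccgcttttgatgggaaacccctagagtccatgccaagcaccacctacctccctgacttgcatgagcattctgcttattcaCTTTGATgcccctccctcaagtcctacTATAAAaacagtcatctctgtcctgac

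The 250 bases were identical in the pairs Defa21 and Defa22, Defa23 and Defa31, Defa36 and Defa37, and Defa2 and Defa20. The 12 alpha-defensin windows are therefore not independent in the motif counts. A match is a description of letters and was not tested as a binding site. Among the 9 other members with upstream sequence the core was not found in this window of Lyz1, Itln1, Ang4, Mptx1, Mptx2 and Reg3b.

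Reads of the 32 genes were spread very unevenly over cells. At least 1 such read was present in 1830 of 1836 cells, yet the median cell devoted 0.0796% of its reads to them and the highest cell 65.9%. In 106 cells the share was 10% or more, in 76 cells 1 to 10%, in 626 cells 0.1 to 1%, in 856 cells 0.01 to 0.1% and in 172 cells under 0.01%. The 106 cells, which were 5.77% of all cells, held 89.2% of the reads on the 32 genes, whereas the 856 cells at 0.01 to 0.1% held 1.15%. A limit of 1% of the reads of a cell was therefore used to separate high cells (182 cells, 93.5% of the reads on these genes) from cells with traces or none. The limit is a cut through a range of levels and not a cell type, and 134 cells lay between 0.5% and 2%, of which 47 came from aged mouse 1 and 34 from young mouse 3.

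**Figure D1:**
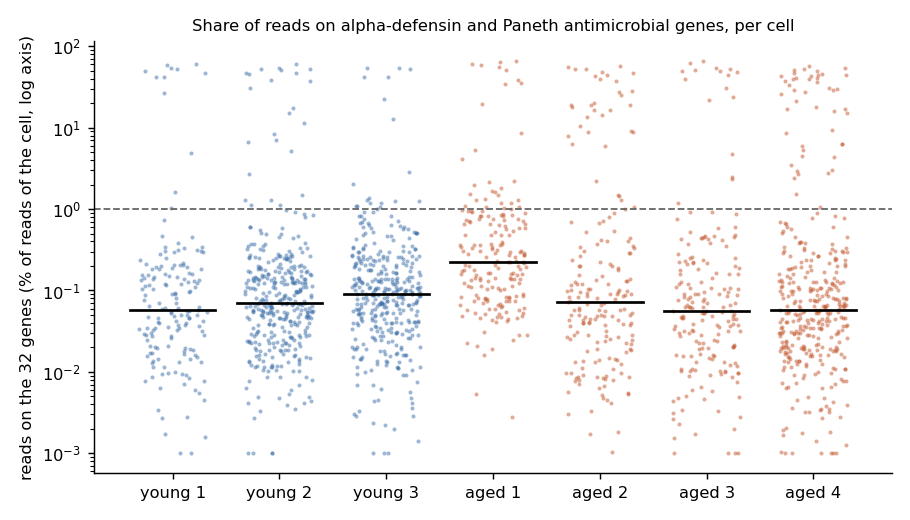
Share of reads on the 32 genes in each cell, on a log axis, for the 3 young (blue) and 4 aged (orange) mice, with the median of each mouse as a black bar, the 1% limit as a dashed line and cells under 0.001% drawn at 0.001%. Each mouse had cells at 10% or more above a bulk of cells near 0.1%, and the bulk of aged mouse 1 lay higher, with a median of 0.222%.

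The 106 cells with 10% or more carried defining genes of Paneth cells that the choice of genes did not include. The 76 cells at 1 to 10% did so in part, with Clps reads in 57.9% and Habp2 reads in 40.8% of them. At 0.1 to 1% such reads were in 40.3% and 13.3% of cells, so a read alone does not mark a Paneth cell. Summed over cells, Clps was at 1561 CPM in cells with 10% or more, 81.1 CPM at 1 to 10% and 1.95 CPM at 0.01 to 0.1%, and Habp2 at 376, 101 and 2.91 CPM. At 1 to 10% single mice ran from 6.40 to 188 CPM for Clps. For Habp2 they ran from 0 to 440 CPM there, with a median of 16.7 CPM. The ISC receptor gene Lgr5 had reads in 96.2% of the cells with 10% or more and stood at 105 CPM there, against 387 CPM in cells at 0.01 to 0.1%. Olfm4, an ISC gene of high level, stood at 3548 against 15851 CPM. Muc2, the mucin of goblet cells, had reads in 100% of the cells with 10% or more and was at 2126 CPM there. At 1 to 10% it was at 2084 CPM, but single mice ran from 135 to 8688 CPM. The goblet list did not move as a whole between cells at 10% or more and at 0.01 to 0.1%. Muc2 was at 2126 against 321 CPM, Tff3 at 445 against 90.1 CPM and Agr2 at 475 against 122 CPM. Zg16 was at 240 against 139 CPM, but its medians over mice were 2.07 against 3.83 CPM. Clca1 was at 29.4 against 103 CPM and Fcgbp at 222 against 296 CPM. Their medians over mice were higher in the cells at 10% or more. In these cells the chosen genes take that share of reads, which by itself lowers the CPM of other genes. This includes Lgr5 and Olfm4, and levels were not corrected for it. Median reads per cell were 238263 and detected genes 9216.5 in the cells with 10% or more, and 319753 and 9583 at 0.01 to 0.1%. No doublet caller was run.

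More cells of the aged mice were high. The share of cells at or above 1% was 7.50%, 6.49% and 4.79% in young mice 1, 2 and 3, and 16.4%, 18.3%, 8.99% and 12.6% in aged mice 1, 2, 3 and 4. The 2 ages did not overlap, and the means were 6.26% ± 1.37 (SD, n = 3) and 14.1% ± 4.13 (SD, n = 4). These shares are over kept cells only. Of the 84 cells left out, 32 came from young mouse 1, and 34 of the 84 were at or above 1%. Exact binomial 95% intervals of single mice did overlap, with 3.94 to 12.7% in young mouse 1 and 5.33 to 14.0% in aged mouse 3. Within the lanes that held both ages the aged mouse exceeded the young by 8.79, 12.9 and 1.49 percentage points. With Reg3 genes left out of the count of reads, a choice made after the values were seen, the share of aged mouse 1 was 6.88%, and the means were 4.86% ± 2.14 (SD, n = 3) and 11.3% ± 4.82 (SD, n = 4), and the ages still did not overlap. Cells with 10% or more were 3.76% ± 1.88 (SD, n = 3) of cells in young and 8.18% ± 3.03 (SD, n = 4) in aged mice, and there the ages overlapped. These are scores over the chosen genes and were given no p-value. Summed marker lists of other mature cells overlapped between the ages with higher upper ends in aged mice: the goblet list was 279 to 1020.2 CPM in young and 491 to 2583 CPM in aged mice, the enterocyte list 758 to 993 and 750.1 to 2166 CPM and the enteroendocrine list 22.0 to 85.0 and 84.5 to 384 CPM, and Neurog3 was at 0 in aged mouse 1. Single markers differed more. Aged mice were higher at unadjusted edgeR p under 0.05 in 6 of 7 enterocyte and 2 of 4 enteroendocrine markers (2.70% of all genes). For goblet markers the count was 0 of 6. Sis and Chgb were without overlap with the aged mice higher (1.82% of all genes). Of 8 ISC markers 1, Tnfrsf19, was lower in aged mice at unadjusted edgeR p under 0.05 (2.54% of all genes) and 0 were higher. Smoc2 and Tnfrsf19 were without overlap with the aged mice lower (4.09% of all genes). The part of other mature cells in the shares of high cells was not tested.

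Within high cells the ages were not separated by level. High cells devoted 41.5%, 25.1% and 17.7% of their summed reads to the 32 genes in young mice 1, 2 and 3, and 13.2%, 23.1%, 38.4% and 24.3% in aged mice 1 to 4. The ages overlapped, and aged mouse 1 was the lowest of all. In high cells Mptx2 was at 8239, 2443 and 2197 CPM in young and 1098, 1411, 842 and 839.9 CPM in aged mice. These levels rest on 12, 24 and 18 high cells in young mice 1, 2 and 3 and 31, 34, 17 and 46 in aged mice 1 to 4. Mptx2 was the 1 member of 31 without overlap in that direction, where 1.38% of all genes tested showed the same. In the other direction 0 of 31 were without overlap (2.38%). A count of 1 does not set Mptx2 apart from all genes.

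**Figure D2:**
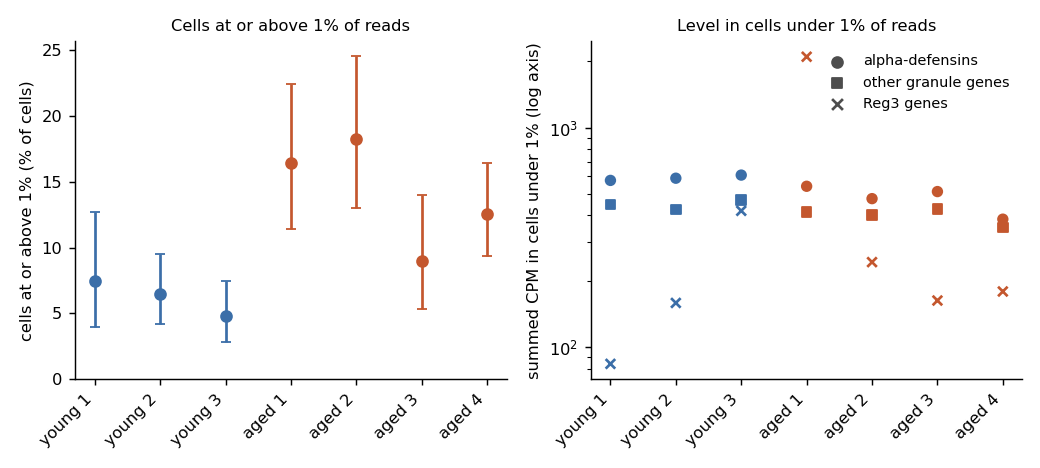
Left, share of cells at or above 1% in each mouse with exact binomial 95% intervals. Right, summed CPM of 3 groups of genes in the cells under 1%, on a log axis, with young mice in blue and aged mice in orange. The share was higher in each aged mouse than in any young mouse, while alpha-defensins in the remaining cells ran from 575 to 608 CPM in young and 383 to 540 CPM in aged mice, and Reg3 genes stood out in aged mouse 1 with 2100 CPM.

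In cells under 1%, the 22 alpha-defensins together stood at 575, 588 and 608 CPM in young mice 1, 2 and 3, and at 540.5, 475, 511 and 383 CPM in aged mice 1 to 4. These trace levels were higher in each young mouse than in any aged mouse. Their upper end is bounded by the limit itself, which was set on the same genes. Within lanes the order was the same, with 644 CPM in young mouse 2 against 540.5 in aged mouse 1, 542 in the rest of young mouse 2 against 475 in aged mouse 2, and 575 in young mouse 1 against 511 in aged mouse 3. Defa24 alone was at 405, 399 and 435 CPM in young and 363, 326, 351 and 281 CPM in aged mice, and with Defa23 it was among the 2 of 26 members tested in these cells whose ages did not overlap with the aged mice lower, where 3.92% of all genes tested showed this. In the opposite direction the count was 0 of 26, against 1.85% of all genes. Neither gene was past the threshold in edgeR (adjusted p = 1.00 for Defa24), and 1 of 26 members, Reg3b, had an unadjusted p under 0.05 with the aged mice higher (2.38% of all genes) and 0 with the aged mice lower (2.57%). The trace of Lyz1 was at 222, 249 and 209 CPM in young and 205, 211, 262 and 209.6 CPM in aged mice, with no order by age.

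Trace reads of the abundant members were found in most cells, also in those with markers of other lineages. Defa24 had reads in 95.9% of all cells (92.6% after thinning each cell to 100000 reads) with a median of 201 CPM. In 30 cells with at least 1000 CPM of enteroendocrine markers, 100% had reads of Defa24 with a median of 126 CPM. Their median depth was 286934 reads, against 305492 in all cells. Of these 30 cells, however, 16.7% had at least 1000 CPM of Defa24 and 10% were high cells, close to the 16.6% and 9.91% of all cells. In 46 cells with at least 100 CPM of tuft markers 91.3% had reads, with a median of 106 CPM. Cells with Lgr5 at or above 100 CPM and under the 1% limit had a median of 171 CPM. Lyz1 had reads in 87.0% of all cells, 83.3% of the enteroendocrine-marked and 76.1% of the tuft-marked cells, and Itln1 in 75.9%, 86.7% and 63.0%. A read in a cell was not taken by itself as expression of the gene by that cell, and the source of the trace reads was not tested. The thresholds on the marker lists were chosen after the values were seen. The 84 cells with fewer than 1000 detected genes, with a median of 430.5 reads, also held these genes, at 0.412% of their reads.

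**Figure D3:**
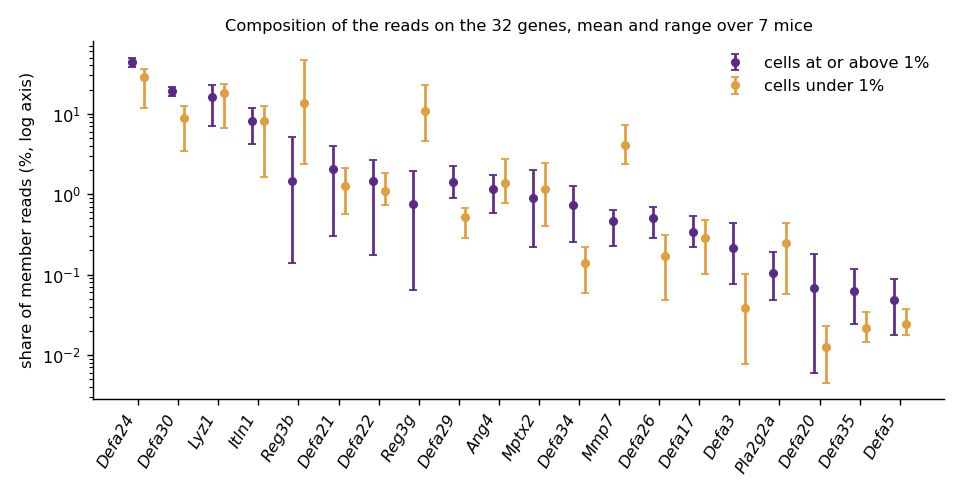
Share of the reads on the 32 genes that fell on each of the 20 genes named in full, on a log axis, in cells at or above 1% (purple) and in cells under 1% (yellow). Points are means and bars the range over 7 mice. Defa24 and Defa30 took a larger share in high cells, whereas Reg3b, Reg3g, Mmp7 and Pla2g2a took a larger share in cells under 1% in each mouse. The limit was set on these same reads.

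The mixture of genes in trace cells differed from that in high cells. The limit was set on the same reads, and the shares of the genes depend on each other. The contrasts below, with the leading members, are therefore in part set by the cut. In high cells Defa24 held 44.6% ± 3.86 (SD, n = 7) of the reads on the 32 genes, Defa30 19.3% ± 2.45, Lyz1 16.1% ± 5.20 and Itln1 8.21% ± 2.39. In trace cells Defa24 held 29.1% ± 8.05 (SD, n = 7), Lyz1 18.2% ± 6.02, Reg3b 13.5% ± 14.8, Reg3g 10.8% ± 6.68, Defa30 8.88% ± 2.93, Itln1 8.23% ± 3.35 and Mmp7 4.14% ± 1.62. The shares of Defa24 and Defa30 were larger in high cells in 7 of 7 mice, and those of Reg3b, Reg3g, Mmp7 and Pla2g2a larger in trace cells in 7 of 7. The reads of Defa30 per read of Defa24 were 0.369 to 0.472 in high and 0.271 to 0.344 in trace cells, ranges that did not overlap between the 7 mice. Mmp7 per Defa24 was 0.00509 to 0.0166 in high and 0.0652 to 0.313 in trace cells. Of the 106 cells with 10% or more, 106 had Defa24 as the leading member, whereas at 1 to 10% Defa24 led in 36 and Reg3b in 29 of 76 cells. Among trace cells Defa24 led in 51.4%, Reg3g in 14.3%, Lyz1 in 14.1% and Reg3b in 8.37%.

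Summed over all cells of a mouse, the 32 genes stood at 29890 CPM in young mouse 1, 13065 in young mouse 2 and 9381 in young mouse 3, and at 18522, 33898, 28147 and 19602 CPM in aged mice 1 to 4. Young mouse 1 lay among the aged mice, so that the ages overlapped. In edgeR (quasi-likelihood test, Benjamini-Hochberg adjustment over all genes) 0 of 31 members tested passed an adjusted p of 0.05, as did 0% of the 20957 genes tested. Defa33, with 63 reads in all, did not pass the filter on low counts. At an unadjusted p under 0.05, 3 members (Pla2g2a, Defa34 and Defa5) were higher in aged mice (2.70% of all genes) and 0 lower (2.54%). In DESeq2 1 of 29 members with an adjusted p, Pla2g2a, passed (0.848% of all genes), and in limma voom 0 of 31 (0.00954%). The count was also 0 of 32 without the filter (0.0622%), 0 of 30 with cells thinned (0.0642%), 0 of 31 with cells weighted equally (0.0859%), 0 of 31 without aged mouse 1 (0.0369%) and 0 of 26 in cells under 1% (0%). Log2 fold changes were above 0 in 27 of 31 members, against 51.7% of all genes tested, with a median of 0.71 against 0.01. Members that share reads are not independent in this count. The ages did not overlap in 3 of 31 members with the aged mice higher (Defa34, Defa5 and Pla2g2a), against 1.82% of all genes, and in 0 with the aged mice lower, against 4.09%. Without young mouse 1 the ages did not overlap in 14 of 32 members, each with the aged mice higher (3.79% of all genes), the median was 1.43, and 16 members had an unadjusted p under 0.05 with the aged mice higher (2.62% of all genes) and 0 with them lower (1.97%), still with 0 of 32 past the adjusted threshold (0.00436%). With the replicate number as a block, which pairs no animals by the labels, 8 of 31 were higher (1.71%) and 0 lower (1.94%) at an unadjusted p under 0.05.

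**Figure D4:**
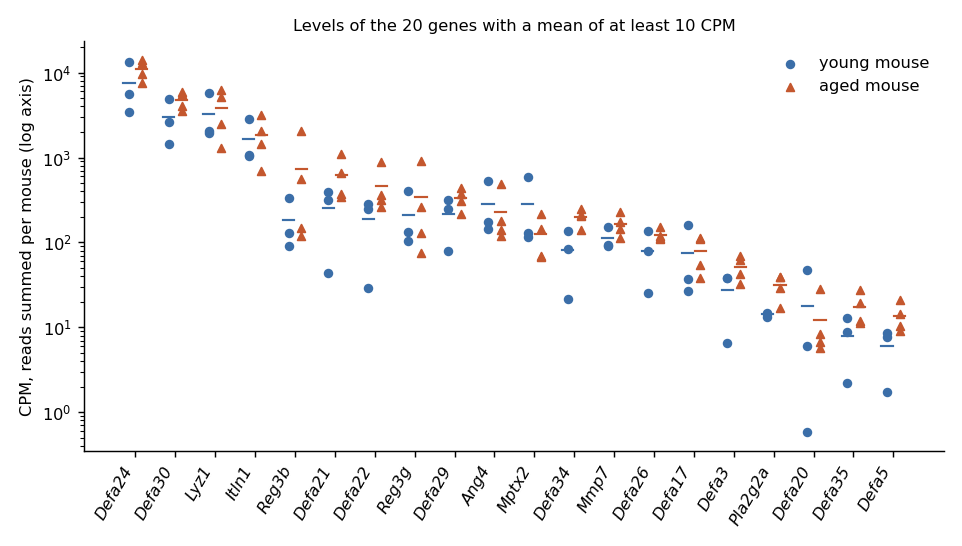
CPM of the 20 genes with a mean of at least 10 CPM, 1 point per mouse on a log axis, with young mice as blue circles, aged mice as orange triangles and the mean of each age as a bar. The ages were separate in 3 of the 20 genes, and for each of the 12 alpha-defensins shown the lowest point was young mouse 3.

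Among the alpha-defensins, Defa24 was at 13352, 5667 and 3433 CPM in young mice 1, 2 and 3 and at 7635, 14078, 13083 and 9635 CPM in aged mice 1 to 4. Per kilobase of exon it was the highest member, with a mean level of 22803 CPM per kb over 7 mice, against 10025 for Defa30 and 2816 for Lyz1. Its log2 fold change was 0.61 ± 0.43 (SE; edgeR adjusted p = 1.00), and young mouse 1 lay within the aged range. Defa30 was at 4920.0, 2611 and 1456 CPM in young and 3549, 5534, 5838 and 4022 CPM in aged mice, with a log2 fold change of 0.71 ± 0.38 (SE). Young mouse 1 was again within the range of aged mice. Cells with at least 1000 CPM of Defa24 were 16.6% of all and held 97.7% of its reads, and for Defa30 8.39% of cells held 97.2%.

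Defa21 and Defa22, the pair that differs at 1 base in the last coding exon, moved together between mice. They share 72.9% of the 50-base windows of Defa21, so they are not independent counts. Defa21 was at 394, 317 and 43.4 CPM in young and 649, 1101, 343 and 371 CPM in aged mice, in the order of their numbers. Defa22 was at 284, 249.8 and 28.9 CPM in young and 360.4, 887, 318 and 261 CPM in aged mice. Aged mouse 2 was highest and young mouse 3 lowest for both, a difference of 25.4-fold for Defa21 and 30.7-fold for Defa22, and the log2 fold changes with age were 1.34 ± 0.66 and 1.34 ± 0.68 (SE).

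Defa34 was at 137, 84.6 and 21.6 CPM in young and 205, 244, 141 and 212 CPM in aged mice, and Defa5 at 8.62, 7.64 and 1.73 CPM against 14.3, 21.3, 10.3 and 8.96 CPM. Each aged mouse was above each young mouse for both genes, by a narrow margin. They share 78.6% of the 50-base windows of Defa5, so they are not independent counts. The log2 fold change was 1.35 ± 0.50 (SE) for Defa34 and 1.25 ± 0.52 (SE) for Defa5, with edgeR adjusted p of 0.833 and 0.904.

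The identical pair Defa3 and Defa17 did not move together. Defa3 was at 38.3, 38.3 and 6.46 CPM in young and 70.1, 32.8, 62.2 and 42.0 CPM in aged mice, and Defa17 at 159.8, 36.9 and 27.1 CPM against 37.8, 109, 113 and 53.8 CPM. Cells with at least 1000 CPM numbered 10 for Defa3 and 58 for Defa17. Since their coding sequences are identical and under 10% of the windows of either are its own, how the reads were divided between the copies was not tested.

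Defa20 varied 80.9-fold between mice, the most of the 20 genes, with 47.0, 5.97 and 0.581 CPM in young and 28.6, 6.67, 8.33 and 5.65 CPM in aged mice. Only 5 cells reached 1000 CPM of it, and they held 71.3% of its reads. Its log2 fold change was -0.52 ± 1.08 (SE), with an error above its size. Defa29 was at 318, 249.0 and 78.8 CPM in young and 368, 432, 309 and 217 CPM in aged mice, Defa26 at 135, 79.3 and 25.5 CPM against 112, 150.1, 110.1 and 118 CPM, and Defa35 at 12.9, 8.84 and 2.19 CPM against 19.2, 27.2, 11.9 and 11.2 CPM. In all 3 young mouse 3 was lowest and the ages overlapped. The other 10 alpha-defensins had means under 10 CPM, from 0.127 CPM for Defa33 to 8.44 CPM for Defa23, and reads in 1.36% to 11.7% of cells.

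Among the other granule genes, Lyz1 was at 5738, 1959.8 and 2026 CPM in young and 1309.9, 6254, 5098 and 2511 CPM in aged mice, with a log2 fold change of 0.27 ± 0.55 (SE). Itln1 was at 2875, 1060.4 and 1046 CPM in young and 702, 3155, 2063 and 1453 CPM in aged mice, with a log2 fold change of 0.19 ± 0.51 (SE). For both, aged mouse 1 was the lowest and aged mouse 2 the highest of the 7 mice. Lyz1 shared 16.1% of its windows with Lyz2.

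Ang4 was at 528, 174 and 142 CPM in young and 139.8, 487, 180.4 and 118 CPM in aged mice, and Mptx2 at 597, 130.1 and 117 CPM against 144, 216, 67.4 and 68.3 CPM. Young mouse 1 was highest for both. The log2 fold change of Mptx2 was -1.16 ± 0.61 (SE; edgeR adjusted p = 1.00), and without young mouse 1 it was 0.067. Of 54 cells with at least 1000 CPM of Mptx2 and 90 cells with that level of Ang4, all also had at least 1000 CPM of Defa24, and 98.1% and 98.9% of them were high cells. Mptx1 was near the limit of detection, with a mean of 0.670 CPM and reads in 3.10% of cells.

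Mmp7, whose product activates mouse alpha-defensins, was at 90.6, 93.5 and 154 CPM in young and 176, 230.2, 111 and 145 CPM in aged mice, with a log2 fold change of 0.60 ± 0.28 (SE; edgeR adjusted p = 0.964). Cells with at least 1000 CPM held 60.7% of its reads, a share that also follows the level of a gene, and it was the leading member in 96 trace cells. Of the 88 cells with at least 1000 CPM of Mmp7, 87.5% also had at least 1000 CPM of Defa24.

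In GENCODE M21 Pla2g2a is annotated as a polymorphic pseudogene, with 442 coding bases that leave 1 base over after whole codons. Whether these mice make the enzyme was not tested. Pla2g2a had the smallest edgeR p of the members. It was at 14.5, 13.4 and 14.8 CPM in young and 17.0, 39.0, 28.8 and 39.6 CPM in aged mice, each aged mouse above each young mouse. Its log2 fold change was 1.18 ± 0.29 (SE), with an edgeR adjusted p of 0.486 and a DESeq2 adjusted p of 0.0198, so that the call rests on the tool. Only 4 cells reached 1000 CPM, all of them high cells. In cells under 1% it was at 0.630, 3.19 and 4.63 CPM in young and 6.16, 2.73, 2.44 and 4.04 CPM in aged mice, with overlap, and the log2 fold change there was 0.49.

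Reg3b and Reg3g were highest in aged mouse 1, while Reg3a was not. Reg3b was at 90.6, 128 and 333 CPM in young mice and at 2065, 556, 120.3 and 149.9 CPM in aged mice 1 to 4, and Reg3g at 104, 132 and 404 CPM against 898, 261, 75.4 and 130.4 CPM. The log2 fold changes were 2.00 ± 0.95 (SE; edgeR adjusted p = 0.969) for Reg3b and 0.71 ± 0.79 (SE) for Reg3g, and without aged mouse 1 they were 0.63 and -0.40. In aged mouse 1 36.0% of cells had at least 1000 CPM of Reg3b, against 2.16% to 8.06% in the other 6 mice. Aged mouse 1 gave 68 of the 149 cells at that level.

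Pooled over the 7 mice, cells with at least 1000 CPM of Reg3b reached that level of Defa24 about as often as all cells did. The reverse held as well. Aged mouse 1 weighs heavily here, with 68 of the 149 cells at that level of Reg3b, and single mice were not examined for this. Reg3b was higher in high cells than in trace cells in 7 of 7 mice. Reads of Reg3b count toward the 1% limit, so this level and the share of high cells that follows are in part set by the limit. Of the 149 cells with at least 1000 CPM of Reg3b, 70.5% had at least 1000 CPM of Reg3g but 19.5% that of Defa24, against 16.6% of all cells, and 35.6% were high cells, against 9.91% of all cells. Of the 305 cells with at least 1000 CPM of Defa24, 9.51% had that level of Reg3b, against 8.12% of all cells. In cells under 1%, Reg3b was at 26.4, 60.7 and 153 CPM in young and 1407, 158, 89.0 and 78.5 CPM in aged mice. Young mouse 2 was split between 2 such lanes, and there Reg3b over all its cells was at 183 CPM in the lane shared with aged mouse 1 and 80.5 CPM in the lane shared with aged mouse 2, while Defa24 was at 5585 and 5736 CPM. A part of the lane in these values was not tested. Reg3a was low and lowest among the aged mice in aged mouse 1, with 6.05, 1.24 and 6.18 CPM in young and 2.88, 20.8, 11.9 and 11.6 CPM in aged mice.

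**Figure D5:**
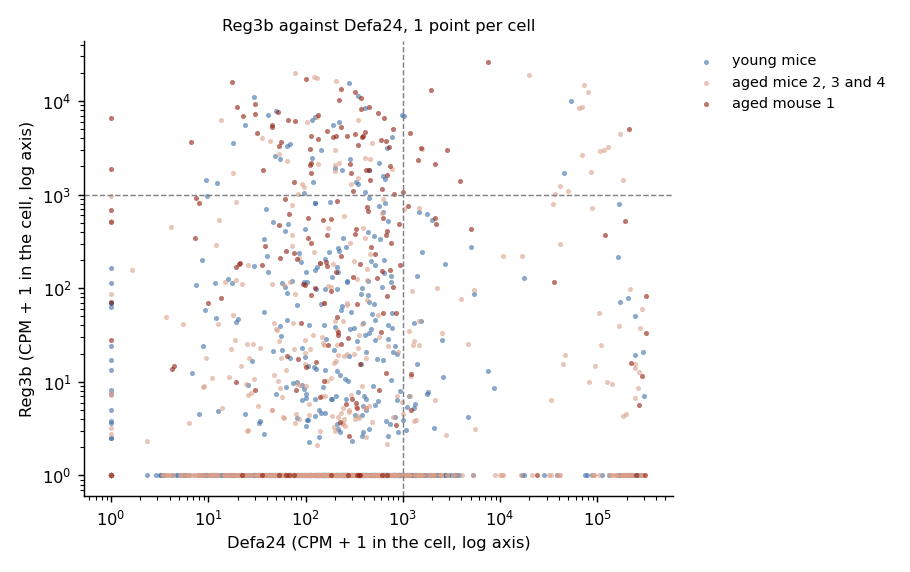
Reg3b against Defa24 in each cell, as CPM + 1 on log axes, with cells of young mice in blue, of aged mice 2, 3 and 4 in light orange and of aged mouse 1 in dark red. Dashed lines mark 1000 CPM. Most cells above 1000 CPM of Reg3b lay left of the line for Defa24, as did most of all cells. Of the 149 cells above the line for Reg3b, 68 came from aged mouse 1.

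Other genes of the Paneth cell and of epithelial defence were tested in the same fit, and none of those tested passed the threshold of edgeR. Of 10 regulators of Paneth and secretory fate, 2 had an unadjusted p under 0.05 with the aged mice higher (2.70% of all genes) and 1 with them lower (2.54%). Atoh1, which sets the secretory fate, was at 13.0, 4.99 and 8.63 CPM in young and 10.3, 15.6, 26.3 and 28.6 CPM in aged mice (log2 fold change 1.24 ± 0.44, SE), and Spdef, a factor of goblet and Paneth maturation, at 3.03, 3.50 and 3.17 CPM against 2.61, 6.60, 6.87 and 9.42 CPM (1.05 ± 0.41, SE). Ephb3, the receptor that keeps Paneth cells at the crypt base, was at 60.6, 51.9 and 69.6 CPM in young and 43.2, 44.3, 37.2 and 44.1 CPM in aged mice, without overlap (log2 fold change -0.47 ± 0.16, SE). Their edgeR adjusted p-values were 0.817, 0.888 and 0.808.

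Of the 7 niche signals of the Paneth cell 6 were tested and 0 had an unadjusted p under 0.05, where the same shares of all genes apply to this and the lists that follow. Those with the highest mean were the Notch ligand Dll1 at 20.1 CPM, Tgfa at 11.6 CPM and Wnt3 at 8.66 CPM. Of 8 other Paneth cell genes tested only Habp2 had an unadjusted p under 0.05, at 21.2, 12.6 and 14.6 CPM in young and 12.3, 35.4, 26.0 and 42.9 CPM in aged mice. Of 15 defence genes tested, Sprr2a3, a small proline-rich protein, was higher in aged mice with 0.119 to 0.121 CPM in young and a lowest value of 0.129 CPM in aged mice, and Duoxa2, needed for the oxidase Duox2, was lower, with 13.1, 6.66 and 8.60 CPM against 5.85, 2.56, 3.61 and 5.97 CPM (edgeR adjusted p = 0.694 and 0.833). Sprr2a3 was near the limit of detection. Median log2 fold changes of the lists were 0.16 for the regulators, 0.06 for the niche signals, 0.43 for other Paneth cell genes and 0.11 for defence genes.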

How the data were processed

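Lgr5-high cells were sorted singly and sequenced by a Smart-seq2 protocol as single-end reads, 384 cells per lane. The authors aligned reads to GRCm38 with HISAT2 and deposited whole-number read counts per gene and cell (HTSeq is also named per the labels). The counting annotation, the strand setting and the handling of reads with several matches are not stated in the labels or methods, so reads of near-identical copies cannot be assigned with certainty. Of 55471 gene IDs 55144 were matched to symbols, the rest holding 0.0307% of reads, and 0 columns were left unmapped.

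The analysis was restricted to cells in which 1000 or more genes had a read, and counts were summed per mouse. All genes were tested with edgeR 4.0.16 (TMM, low counts filtered, quasi-likelihood, Benjamini-Hochberg, threshold 0.05) in R 4.3.3. DESeq2 1.42.0 and limma 3.58.1 were alternatives, as were thinning to 100000 reads (104 shallower cells left out), other cell filters and limits, and leaving out each mouse. The tests were checked on simulated counts. Members with a mean of at least 10 CPM were named in full, the others by range. Genes of other lists were named at an unadjusted p under 0.05, else the 3 highest by mean. Members and lists were chosen with earlier results of these data known. P-values set the difference between the ages against the spread between mice of an age, which can also hold differences between lanes. Sequences came from GENCODE M21 and RefSeq.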

Additional observations from a re-analysis of the deposited data

Results flagged for a closer look

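Among groups of 4 aged mice, 5 of 33 had a mouse far from the other 3 by Dixon's test at the 95% level. Chance gives about 1 in 20 for normal values in independent groups. These values were CPM without a log, and some groups share genes, so the count cannot be set against that rate. For Defa22 this was aged mouse 2 at 887 CPM, with the others at 261 to 360.4 CPM. Aged mouse 2 was also apart for Ang4, at 487 CPM against 118 to 180.4 CPM. Defa20 was at 28.6 CPM in aged mouse 1 against 5.65 to 8.33 CPM. In cells under 1%, aged mouse 1 stood apart for the 32 genes together, at 3053 CPM against 913 to 1118 CPM, and for the Reg3 genes, at 2100 CPM against 163 to 244 CPM.

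Cells left out for having fewer than 1000 detected genes also held reads of these genes. They made up 1490 of 361703 reads, or 0.412%, and were present in 65 of 84 such cells. Of these 84 cells 34 were at or above 1%, which a few reads can reach at a median of 430.5 reads. The cells left out numbered 32, 14 and 8 in young mice 1, 2 and 3, and 3, 6, 3 and 18 in aged mice 1 to 4.

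Genes that the table lists under other symbols but RefSeq names Defa38 to Defa43 held 0.257% of the reads of kept cells. They were not among the 32 genes.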

How the results depend on the processing

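Under the alternatives, 347 of 380 log2 fold changes of named members kept their direction and side of the threshold, 32 changed sign and 1 passed the threshold only there (Pla2g2a in DESeq2). DESeq2 called 1 member where edgeR called 0. Members without overlap numbered 3 of 31 as reported (5.92% of all genes in either direction), 7 of 30 with cells thinned (7.36%) and 10 of 31 with cells weighted equally (8.40%). They numbered 3 to 14 when 1 mouse was left out (9.19% to 13.3% of all genes), with 14 of 32 without young mouse 1 (13.3%) and 5 of 31 without aged mouse 2 (9.25%). The median log2 fold change was -0.023 with cells at or above 1% left out and 0.45 to 1.43 when 1 mouse was left out, the highest without young mouse 1. The difference in the share of high cells was 12.4 percentage points at the 0.3% limit and 6.40 to 9.49 when 1 mouse was left out. The summed level differed by 0.30 to 1.13 on the log2 scale when 1 mouse was left out. The summed level in cells under 1% differed by 0.13 on the log2 scale, by -0.21 at the 0.3% limit, by -0.26 without aged mouse 1 and by -0.22 with the limit set without Reg3 genes. Over all genes edgeR called 0, DESeq2 177, limma voom 2, edgeR without the filter 22, with thinning 11, without aged mouse 1 8 and without young mouse 1 1, and 18 were called with cells weighted equally.

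Signs changed with cells at or above 1% left out for Defa24 (-0.28), Defa30 (-0.30), Itln1 (-0.42), Defa22 (-0.015), Defa29 (-0.15), Defa26 (-0.032), Defa17 (-0.46), Defa3 (-1.08), Defa35 (-0.14) and Defa20 (0.10). Defa20 was at 1.27 in limma voom, 0.81 thinned, 1.05 with cells weighted equally, 0.93 with the replicate block and 0.34 within lanes. Ang4 was at 0.17 thinned, 0.18 with cells weighted equally, 0.060 with the replicate block and 0.0023 within lanes. When 1 mouse was left out, log2 fold changes ran from -0.071 to 1.00 for Lyz1, -0.18 to 0.88 for Itln1, -0.40 to 1.59 for Reg3g, -0.90 to 0.62 for Ang4, -1.56 to 0.067 for Mptx2, -0.29 to 1.37 for Defa17 and -1.33 to 1.99 for Defa20. The cause was not tested.

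The replicate numbers do not pair the mice: deviations of same-numbered mice correlated at -0.02, 0.11 and -0.11, and own numbers correlated best in 1 of 3 pairs. With the replicate block 0 members were called, the median log2 fold change was 0.97 and the summed level differed by 0.76. The number of mice, 3 and 4, and shared reads among copies limit these results.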

Other observations

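The 6 genes that RefSeq names as alpha-defensins followed the numbered ones in level. Together they were at 3319, 2063 and 1079 CPM in young and 2909, 3712, 4121 and 2837 CPM in aged mice, with overlap between the ages. AY761184, named Defa39 by RefSeq, was the highest, at 2023, 1310.0 and 678 CPM in young and 1859, 2246, 2493 and 2027 CPM in aged mice. Its log2 fold change was 0.74 ± 0.32 (SE; edgeR adjusted p = 0.936). Of its reads 97.7% were in cells at or above 1% by the 32 genes.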
